A study of Mus musculus with 10 samples.

Results

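The genes described here encode the nuclear subunits of mitochondrial oxidative phosphorylation, measured in mouse Lewis lung carcinoma (LLC) cells, which derive from a lung tumour of the C57BL/6 strain. They were taken by symbol: those beginning with Nduf, Uqcr, Cox4 to Cox8 or Atp5, together with Sdha, Sdhb, Sdhc, Sdhd and Cycs. There were 91 such genes among the 18193 with a probe set of a single symbol, and each was represented by its brightest probe set over the 10 arrays. One line had been made to express TDAG8, a cell surface receptor that senses protons and is encoded by Gpr65, and the control line carried the vector. Whether either line was a single clone is not given in the sources used here. Both lines were kept without serum in medium with albumin at pH 7.4 for 12 h, were sampled before treatment, and were then kept at pH 6.4 or pH 7.4 for 4 h or 12 h. Each line and condition had 1 Affymetrix Mouse430 2.0 array, which received RNA pooled from 4 cultures. The series asked which genes TDAG8 controls in cultured cells.

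Oxidative phosphorylation couples electron transfer in the inner mitochondrial membrane to ATP synthesis. Complex I oxidises NADH and complex II oxidises succinate. Complex III passes the electrons from ubiquinol to cytochrome c, complex IV passes them to oxygen, and complex V uses the proton gradient to make ATP. Complex I is built stepwise with the help of assembly factors, several of which carry Nduf symbols without being subunits of the finished complex. In many tumour cells the pathway runs beside a high rate of glycolysis, whose product acidifies the surroundings. Grouped by symbol, the 91 genes were 36 of complex I, 4 of complex II, 8 of complex III, 17 of complex IV and 17 of complex V. The others were the cytochrome c gene Cycs and 8 complex I assembly factors (Ndufaf1 to Ndufaf8).

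Of the 91 genes, 87 passed the filter on low values and were tested. The 4 below it were Cox6b2, Cox7b2, Cox8b and Ndufb4, and no deposited intensity of these went above 14.4 on any array. Each of the 4 was read by 1 probe set, and a low reading does not show that the transcript was absent. The Gpr65 probe set read between 0.3 and 5.3 on all 10 arrays, so it gave no check of the labels. Of 8 epithelial markers 4 reached the filter, and Krt8, a keratin, read between 1242 and 2648. Cdh1, Krt19, Cldn4 and Cldn7 stayed at or under 8.8, while the mesenchymal gene Vim read between 6140 and 9227. The leukocyte gene Ptprc stayed at or under 6.3 and the endothelial gene Pecam1 at or under 6.6. The B1 repeat control probe set read 2602 and 3587 on the 12 h arrays at pH 6.4, against 844 to 1456 on the other 8 arrays. In bulk RNA, fewer cells of a kind and less of a transcript per cell cannot be told apart.

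Acidic medium for 12 h gave the main change. There, 14 of the 87 genes rose and 5 fell (21.8% of them), against 34.6% of all 12160 genes tested. The genes that rose were led by complex I assembly factors and by Sdhd, a membrane anchor of complex II. Those that fell were led by 2 isoform genes read at low intensity, Ndufa4l2 and Cox6a2, and by Ndufv3, an accessory subunit of complex I. At 4 h 1 gene of the 87 passed, against 17.8% of all genes, and the comparison of the lines had none, against 1.23%. Log2 differences are on the scale of log2(intensity + 2.4) after quantile normalisation, and a gene is said to rise or fall where its adjusted p in limma was under 0.05. Since matched conditions took the place of replicates, a p-value here reflects only how alike a difference was across these arrays. In the fits at 4 h, at 12 h and of pH by time, the spread came from how differently the lines behaved between conditions. A pH response particular to either line thus counted as spread there.

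Both matched pairs were higher at pH 6.4 for 40 of the 87 genes at 12 h, against 39.0% of all genes, and lower for 21, against 36.8%. At 4 h both were higher for 46 genes, against 37.7%, and lower for 14, against 37.4%.

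**Figure D1:**
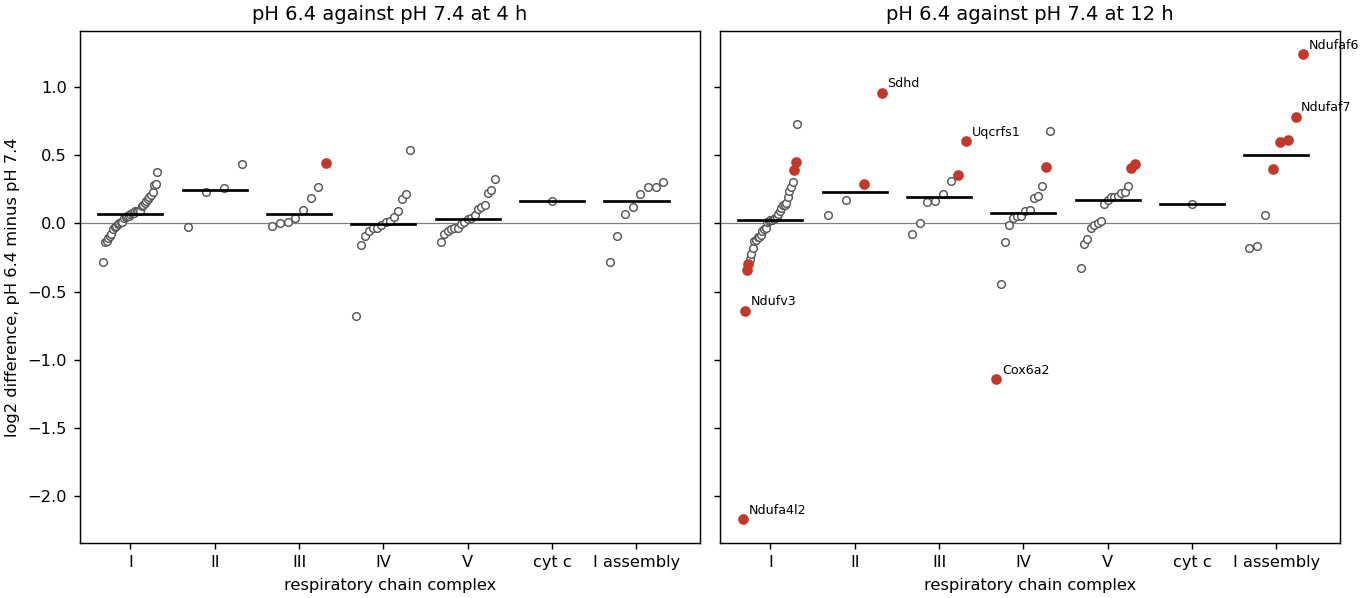
Log2 difference of each tested gene at pH 6.4 against pH 7.4 at 4 h (left) and 12 h (right), by complex, over 2 matched pairs of arrays at each time. Filled points passed the test, open points did not, and bars are medians. At 12 h the assembly factors have the highest median, 0.50, and the medians of complexes I to V lie between 0.02 and 0.23. The assembly factors were read at lower intensities than most subunits.

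The promoters of 4 of the genes that rose at 12 h are shown as examples that hold matches to sites of factors known to control this gene set. They are the window from 250 bases before to 50 after the annotated start, from RefSeq on GRCm38.p6, read 5′ to 3′ along the gene's strand, and 75 of the 91 genes had one. Capitals mark matches to an NRF-1 motif of 10 bases whose sixth base was free, an ETS motif bound by GABP (CCGGAAG) or an estrogen-related receptor motif (TCAAGGTCA), on either strand. Sdhd lies at chr9:50603800-50604099 on the minus strand, Ndufaf4 at chr4:24897833-24898132 on the plus strand, Ndufaf5 at chr2:140170396-140170695 on the plus strand and Ndufaf1 at chr2:119662785-119663084 on the minus strand.
Sdhd: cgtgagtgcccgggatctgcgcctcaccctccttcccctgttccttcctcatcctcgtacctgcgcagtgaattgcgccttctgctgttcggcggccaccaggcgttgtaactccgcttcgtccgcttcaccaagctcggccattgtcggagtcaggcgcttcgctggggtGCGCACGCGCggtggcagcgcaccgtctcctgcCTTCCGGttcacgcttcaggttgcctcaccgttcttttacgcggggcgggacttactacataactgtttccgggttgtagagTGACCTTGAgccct
Ndufaf4: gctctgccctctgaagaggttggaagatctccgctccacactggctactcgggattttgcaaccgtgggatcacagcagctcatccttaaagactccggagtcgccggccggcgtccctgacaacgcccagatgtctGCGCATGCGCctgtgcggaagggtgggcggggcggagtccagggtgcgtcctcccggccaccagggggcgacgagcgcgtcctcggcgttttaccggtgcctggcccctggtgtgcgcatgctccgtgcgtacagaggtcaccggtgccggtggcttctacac
Ndufaf5: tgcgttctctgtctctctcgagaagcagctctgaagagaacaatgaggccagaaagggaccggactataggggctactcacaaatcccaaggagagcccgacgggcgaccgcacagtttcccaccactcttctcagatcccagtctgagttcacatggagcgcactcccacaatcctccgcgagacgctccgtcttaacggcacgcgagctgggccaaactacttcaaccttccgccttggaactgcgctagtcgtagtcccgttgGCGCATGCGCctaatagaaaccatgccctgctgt
Ndufaf1: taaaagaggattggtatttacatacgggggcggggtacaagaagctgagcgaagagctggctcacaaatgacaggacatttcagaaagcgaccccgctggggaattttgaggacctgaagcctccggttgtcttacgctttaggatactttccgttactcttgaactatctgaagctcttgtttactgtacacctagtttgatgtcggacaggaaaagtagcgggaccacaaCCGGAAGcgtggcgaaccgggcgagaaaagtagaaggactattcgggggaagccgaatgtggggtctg
The Sdhd window holds 1 match to each of the 3 motifs, Ndufaf4 and Ndufaf5 hold the NRF-1 motif in its palindromic form, and Ndufaf1 holds the ETS motif. Cox8a and Atp5e, which also rose at 12 h, hold the ETS motif too and are not shown. Ndufaf7, Uqcrfs1, Ndufb3 and Atp5g1 rose as well, and their windows hold none of these motifs.

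The motifs were common in the whole gene set. Counted by gene, with a match in any of its windows, the NRF-1 motif was in 17 of 75 (22.7%), against 5.19% of 27025 genes. The palindromic form among these was in 6 (8%) against 1.07%. CCGGAAG was in 19 genes (25.3%) against 9.93%. The YY1 motif AAGATGGCG was in 7 (9.33%) against 1.64%, and TCAAGGTCA was in 2 (2.67%) against 0.466%. Of the genes that rose at 12 h, 10 had a window, and 3 of these held the NRF-1 motif, 4 CCGGAAG, 0 AAGATGGCG and 1 TCAAGGTCA. Of the 59 with a window that were tested and did not pass at 12 h, 13 held the NRF-1 motif (22%) and 15 CCGGAAG (25.4%). These are letter matches, and neither a match nor its absence shows binding.

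Among the complex I assembly factors, Ndufaf6 showed the highest difference. At 12 h and pH 6.4 its intensity was 250.4 (TDAG8 line) and 295.3 (control line), against 104.9 and 125.7 at pH 7.4. At 4 h it was 146 and 148.9 at pH 6.4 and 134.3 and 134.7 at pH 7.4, and before treatment it was 134.8 and 177.6. Both 12 h arrays at pH 6.4 thus lay above all other 8 arrays, which went no higher than 177.6. The 12 h difference was 1.24 (SE 0.13, adjusted p = 0.00165), a 2.36-fold rise, in both of 2 pairs.

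Ndufaf7, a methyltransferase that acts on a complex I subunit, read 227.5 (TDAG8 line) and 230.5 (control line) at pH 6.4 for 12 h. The other 8 arrays read between 129.5 and 164.8. It rose by 0.78 at 12 h (SE 0.10, adjusted p = 0.00257). Ndufaf5, which hydroxylates a complex I subunit, read 69.8 and 91.1 at pH 6.4 against 47.8 and 64.1 at pH 7.4 at 12 h, in the order TDAG8 and control line, and rose by 0.61 (SE 0.12, adjusted p = 0.0129). The TDAG8 value at pH 6.4 lay only just above the control line's arrays at pH 6.4 for 4 h (64.9) and before treatment (64.4).

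Ndufaf1, which acts early in assembly of the membrane arm together with Ecsit, read 227.3 and 173.3 at pH 6.4 for 12 h. The other 8 arrays read between 115.6 and 155.1, and the 12 h rise was 0.60 (SE 0.15, adjusted p = 0.0258). Ndufaf4, another early factor, read 461.9 and 401.2 at pH 6.4 for 12 h against 336.7 and 308.2 at pH 7.4. The 4 h values were 303.3 and 289.8 at pH 6.4 against 356.6 and 394 at pH 7.4, and before treatment 380.4 and 371. It rose by 0.40 at 12 h (SE 0.11, adjusted p = 0.0356), with a difference of -0.28 at 4 h that did not pass. A second Ndufaf4 probe set gave -0.06 at 12 h and -0.35 at 4 h.

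Together 5 of the 8 assembly factors rose at 12 h, and the other 3, Ndufaf2, Ndufaf3 and Ndufaf8, did not pass. Their median was 0.50, against 0.02 for all genes tested, and 17.0% of all genes rose. Without the TDAG8 pair at 12 h 2 of the 8 rose, and without the control pair 2, which were Ndufaf6 and Ndufaf7 each time.

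**Figure D2:**
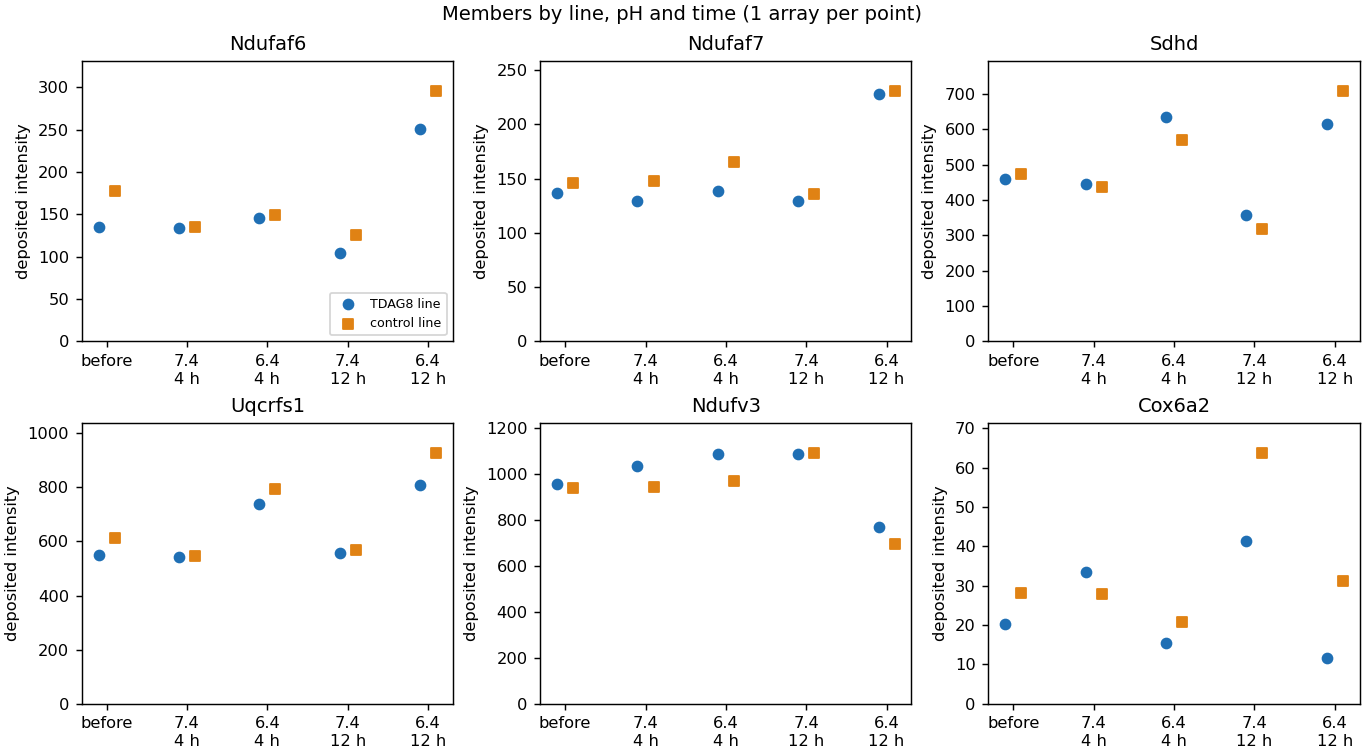
Deposited intensity of 6 genes (linear scale) by condition, with 1 array per point, circles for the TDAG8 line and squares for the control line. Ndufaf6 and Ndufaf7 are highest in both lines at pH 6.4 for 12 h, Sdhd and Uqcrfs1 are higher at pH 6.4 at both times, and Ndufv3 is lowest at pH 6.4 for 12 h.

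Of the 35 tested genes counted under complex I by symbol, Ndufa4 and Ndufa4l2 among them, 2 rose and 4 fell at 12 h. This is 17.1% passing against 34.6% of all genes, and the median was 0.02. Ndufs1, the largest core subunit of the matrix arm, read 822 and 886.6 at pH 6.4 against 574.2 and 659.9 at pH 7.4, in the order TDAG8 and control line. It rose by 0.45 (SE 0.11, adjusted p = 0.0207). Ndufb3, an accessory subunit of the membrane arm, rose by 0.39 (SE 0.10, adjusted p = 0.0313).

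Ndufv3, an accessory subunit at the NADH-binding tip, read 767.5 and 693.5 at pH 6.4 for 12 h. The other 8 arrays read between 937 and 1090, so the groups did not overlap. It fell by 0.64 (SE 0.09, adjusted p = 0.0044). The membrane arm subunits Ndufb9 and Ndufb10 fell by 0.34 (SE 0.09, adjusted p = 0.0255) and 0.30 (SE 0.09, adjusted p = 0.0392). With each array instead centred on its median, these 2 no longer passed (adjusted p = 0.294 and 0.395), and 16 genes rose and 3 fell.

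Ndufa4l2, a relative of Ndufa4 known as a hypoxia-induced gene, was the fourth complex I symbol to fall. It read 4.6 and 2.3 at pH 6.4 for 12 h against 18.5 and 34.9 at pH 7.4, and between 2.1 and 12.1 on the other 6 arrays. The pH 7.4 arrays at 12 h were thus the high ones, and the pH 6.4 values overlapped with those of other arrays. Its difference was -2.17 (SE 0.52, adjusted p = 0.0217), and at these low intensities its size depends on the pseudocount. Ndufa4 itself, now assigned to complex IV and counted here under complex I by its symbol, read between 1794 and 2687 and had a 12 h difference of 0.30 (SE 0.10, adjusted p = 0.0607), which did not pass.

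In complex II, both membrane anchors rose at 12 h and the catalytic subunits did not pass (2 of 4 rose, against 17.0% of all genes). Anchors and catalytic subunits were not tested against each other. For the catalytic subunit Sdha, too, the 4 arrays at pH 6.4 lay above the 4 at pH 7.4. Sdhd read 615.5 (TDAG8 line) and 708.3 (control line) at pH 6.4 for 12 h and 358.7 and 317.3 at pH 7.4. The 4 h arrays gave 634.4 and 570.1 at pH 6.4 against 445.8 and 436.7 at pH 7.4, and those before treatment 458.3 and 475.2. All 4 arrays at pH 6.4 lay above all 6 others. The difference was 0.96 at 12 h (SE 0.12, adjusted p = 0.00244) and 0.43 at 4 h (SE 0.12, adjusted p = 0.052), the latter not passing.

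A second Sdhd probe set gave 0.26 at 12 h and 0.61 at 4 h, so the order of the times differed between the sets. Sdhc, the other anchor, rose by 0.29 at 12 h (SE 0.09, adjusted p = 0.0454) and had 0.26 at 4 h (adjusted p = 0.0883), which did not pass. The flavoprotein Sdha had 0.17 (adjusted p = 0.17) and the iron-sulfur protein Sdhb 0.06 (adjusted p = 0.708) at 12 h. A second Sdha probe set, at intensities of 472 to 770, gave 0.53. Without the control pair at 12 h Sdhd no longer passed (adjusted p = 0.0512).

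In complex III, Uqcrfs1, the Rieske iron-sulfur protein, was the single gene of the 87 to rise at 4 h. Its intensity at pH 6.4 was 739.8 and 795.8 at 4 h and 810.7 and 926.9 at 12 h, in the order TDAG8 and control line. At pH 7.4 it was 543.2 and 544.8 at 4 h and 556.8 and 569.4 at 12 h, and before treatment 551.4 and 611.9. The 4 pH 6.4 arrays lay above all 6 others. It rose by 0.44 at 4 h (SE 0.09, adjusted p = 0.0243) and by 0.60 at 12 h (SE 0.09, adjusted p = 0.00478). With arrays centred on the median the 4 h difference was 0.44 with an adjusted p of 0.0565. Without the TDAG8 pair the 4 h difference was 0.50 (adjusted p = 0.198) and without the control pair 0.39 (adjusted p = 0.296). At 12 h its adjusted p was 0.059 without the TDAG8 pair and 0.0783 without the control pair. The core protein Uqcrc2 rose by 0.35 at 12 h (SE 0.10, adjusted p = 0.0399). The other 6 tested genes of the complex did not pass at either time, so 2 of 8 rose at 12 h, against 17.0% of all genes.

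In complex IV, 1 of 14 tested genes rose at 12 h and 1 fell (14.3%, against 34.6% of all genes). Cox8a, the widely expressed form of its subunit, rose by 0.42 (SE 0.11, adjusted p = 0.0315), with intensities of 1490 and 1684 at pH 6.4 against 1256 and 1078 at pH 7.4. Cox6a2, the heart and muscle form, read 11.6 and 31.2 at pH 6.4 for 12 h against 41.4 and 63.7 at pH 7.4. The 4 h values were 15.5 and 20.8 against 33.5 and 27.9, and those before treatment 20.2 and 28.1. Values were lower at pH 6.4 in all 4 pairs, although the ranges of the pH groups overlapped. It fell by 1.14 at 12 h (SE 0.31, adjusted p = 0.0347), and its 4 h difference of -0.68 did not pass (adjusted p = 0.188). Cox7c, with 0.54 at 4 h (adjusted p = 0.209), and the assembly factor Ndufaf8, with 0.30 (adjusted p = 0.112), were higher in both pairs at 4 h and did not pass.

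Cox6a1, the widely expressed partner of Cox6a2, read between 3255 and 5046 and had a 12 h difference of 0.10 (adjusted p = 0.494). Cox4i1 read between 1846 and 2780 and Cox4i2, a form induced by low oxygen, between 2.4 and 14.5. Their 12 h differences were -0.14 (adjusted p = 0.31) and 0.68 (adjusted p = 0.203). Cox7a2 read between 3126 and 4266, Cox7a2l between 948.6 and 1680, and the muscle form Cox7a1 between 8.5 and 23.1. Cox8b was at or under 10.4 and Cox7c between 13.3 and 28.7. Intensities of different probe sets are not comparable as levels.

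In complex V, 2 of 17 genes rose at 12 h and none fell (11.8%, against 34.6% of all genes). Atp5e, the epsilon subunit of the catalytic part, read 1314 and 1571 at pH 6.4 against 1057 and 1020 at pH 7.4, and rose by 0.44 (SE 0.10, adjusted p = 0.0189). Atp5g1, a gene for the c subunit of the rotating ring, rose by 0.40 (SE 0.12, adjusted p = 0.0426). Cycs read between 3197 and 4623 and had a 12 h difference of 0.14 (SE 0.17, adjusted p = 0.551), with 0.45 for the TDAG8 pair and -0.17 for the control pair.

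By complex, the 12 h medians were 0.02 for complex I, 0.23 for II, 0.19 for III, 0.08 for IV and 0.17 for V. They stayed above 0 under each of the 3 scalings tried, between 0.02 and 0.17 for complex I and between 0.23 and 0.39 for complex II. The 12 h median of all genes was 0.02 quantile normalised, 0.10 centred and -0.03 as deposited. At 4 h the medians were 0.07, 0.25, 0.07, -0.00 and 0.03. In the same order they were 0.12, 0.31, 0.15, 0.09 and 0.16 with centred arrays and 0.17, 0.36, 0.20, 0.14 and 0.21 as deposited. The 99th percentile of deposited intensity at 4 h was 2813.7 at pH 6.4 against 2499.8 at pH 7.4 in the TDAG8 line. In the control line it was 2947.1 against 2540. The part of this array difference in the 4 h medians was not tested. The 4 h median of all genes was 0.01, -0.06 and -0.01 under the 3 scalings, and that of the assembly factors was 0.17 quantile normalised, -0.01 centred and 0.04 as deposited. Differences between complexes were not tested, since genes of a complex are not replicates. The assembly factors also read lower than most subunits, with median intensities over the arrays from 61.55 (Ndufaf5) to 363.8 (Ndufaf4). Among the brightest subunits, Atp5b, Cox6a1 and Uqcrb had medians of 3834, 3860 and 4148. The part of intensity in the contrast between assembly factors and subunits was not tested.

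**Figure D3:**
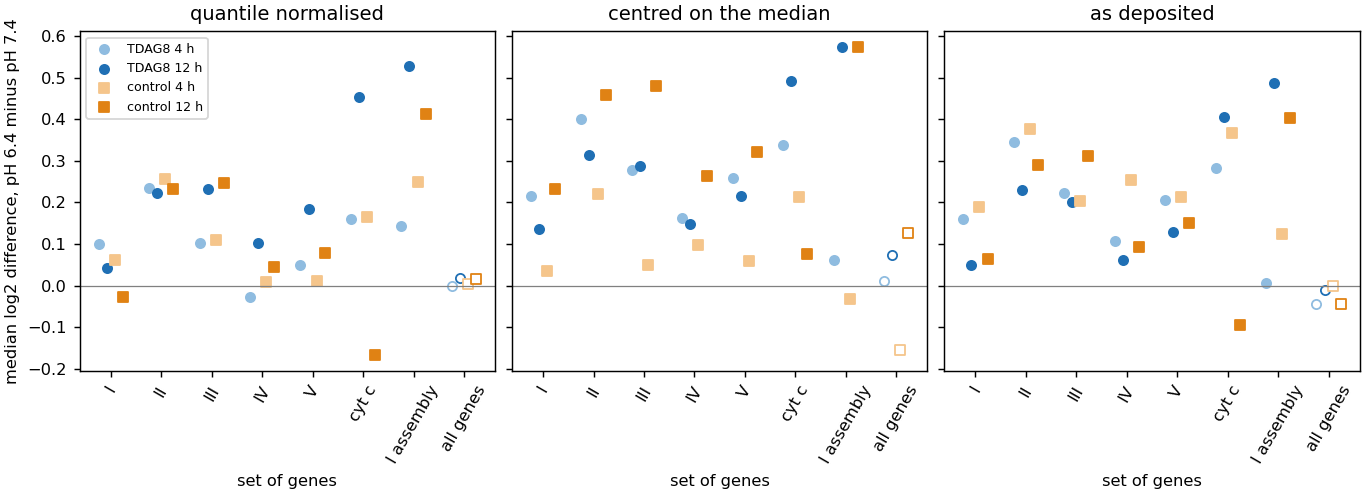
Median log2 difference at pH 6.4 against pH 7.4 for each complex in each of the 4 matched pairs, under 3 scalings of the arrays, with all tested genes as open points. Complexes II and III are above 0 in every pair under each scaling, and the assembly factors are higher at 12 h than at 4 h in both lines.

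The average of the 4 pairs asked what pH did whatever the line and time. There, Uqcrfs1 rose by 0.52 (SE 0.11, adjusted p = 0.0461) and Cox6a2 fell by 0.91 (SE 0.19, adjusted p = 0.0461), 2 of 87 genes against 10.2% of all genes (4.51% rose and 5.65% fell). All 4 pairs were higher for 28 genes (21.7% of all genes were) and lower for 9 (20.6%). The 4 arrays at pH 6.4 lay above the 4 at pH 7.4 without overlap for 19 of the 87 (21.8%), against 12.6% of all genes, and below for 2, against 12.4%. Leaving out any of the 4 pairs left no gene of the set passing.

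Sdhd (0.70, adjusted p = 0.0527), Ndufaf6 (0.75, adjusted p = 0.0923), Ndufb3 (0.34, adjusted p = 0.109) and Sdhc (0.27, adjusted p = 0.143) were higher at pH 6.4 in all 4 pairs and did not pass. The median of the 87 was 0.06, and 0.19 with centred arrays and 0.16 as deposited.

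The difference between the pH responses at 12 h and 4 h passed for 3 genes (12.2% of all genes, 6.62% higher and 5.54% lower). The response of Ndufaf6 was higher at 12 h by 0.97 (SE 0.19, adjusted p = 0.0293) and that of Ndufaf4 by 0.68 (SE 0.16, adjusted p = 0.0437). That of Ndufv3 was lower by 0.60 (SE 0.13, adjusted p = 0.0406). Ndufaf1 (0.69, adjusted p = 0.0869), Ndufaf7 (0.52, adjusted p = 0.0615), Ndufaf8 (-0.48, adjusted p = 0.0965) and Ndufa4l2 (-1.89, adjusted p = 0.143) had the same sign in both lines and did not pass. The difference had the same sign in both lines, higher at 12 h for 35 of the 87 and lower for 22, against 37.9% and 33.3% of all genes. Leaving out any of the 4 pairs left no gene passing in the set or among all genes tested.

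The comparison of the lines asked whether TDAG8 cells differed whatever the pH. With limma no gene of the 87 passed (15 had an unadjusted p under 0.05), against 1.23% of all genes, and 7 were lower when eBayes was run with trend and robust. The TDAG8 line was lower in all 5 matched pairs for 18 genes, against 11.8% of all genes, and higher for 2, against 10.6%. The 5 TDAG8 arrays lay wholly below the 5 control arrays for 3 genes (0.946% of all genes) once normalised, namely Ndufa3, Cox4i1 and Atp5c1. None lay wholly above, against 1.13% of all genes.

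Ndufa3, an accessory subunit of complex I, read 1391, 1464, 1777, 1444 and 1370 in the TDAG8 line before treatment, at pH 7.4 and pH 6.4 for 4 h and at pH 7.4 and pH 6.4 for 12 h. In the control line it read 1823, 1851, 2146, 1943 and 2046 in the same order. Its difference was -0.33 (SE 0.06, adjusted p = 0.0746). Cox7a2l (-0.28, adjusted p = 0.183), Cox4i1 (-0.20, adjusted p = 0.151) and Ndufb10 (-0.15, adjusted p = 0.191) had the same sign in all 5 pairs. The median of the 87 was -0.04, and -0.14 with centred arrays and -0.12 as deposited. The summed intensity of the 8 epithelial markers was 2108 to 2890 on the TDAG8 arrays and 1297 to 2099 on the control arrays, without overlap. Krt8 made up most of this sum, and its own values overlapped (1971.5 to 2647.9 against 1242 to 1998.6). Those of Epcam (32.7 to 37.4 against 22.1 to 45.1) and Ocln (8.5 to 31.1 against 7 to 24.8) overlapped too. Krt18 did not overlap, at 62.3 to 194.4 against 21.6 to 42.1. No epithelial marker passed with limma (3 of 4 tested had an unadjusted p under 0.05). The part of these marker differences in the values of the 87 genes was not tested. The pair before treatment had the lowest median, -0.12, with 17 of 87 genes higher in the TDAG8 line, and the pair at pH 6.4 for 12 h had 0.00, with 44 of 87.

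The pH response did not pass as different between the lines for any gene of the set or any gene tested with limma (none of the 87 had an unadjusted p under 0.05, and none passed with trend and robust). At both times the response was higher in the TDAG8 line for 30 genes, against 26.4% of all genes, and lower for 19, against 27.4%. Ndufa4l2 (1.62), Cox7c (0.47), Cox7a2l (-0.39) and Cox6a2 (-0.62) were among these, each with an adjusted p of 1.0. The standard error of this difference had a median of 0.27 over the 87 genes. The median of the 87 was 0.02 and changed sign to -0.02 with the deposited values.

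Time and medium change gave no passing gene with limma, in the set or among all genes. The fit of 12 h against 4 h averaged over both pH values, so a time change that differed by pH counted as spread. The pH response by time passed for 12.2% of all genes, so the absence of calls does not show that time had no effect. Between 12 h and 4 h, 2 of 87 had an unadjusted p under 0.05. Cox7a2l (0.21) was higher and Uqcr11 (-0.19), Atp5g1 (-0.22) and Ndufv1 (-0.25) were lower at 12 h in all 4 pairs, with adjusted p of 0.439, 0.445, 0.439 and 0.423. In all, 21 of the 87 were lower at 12 h in all 4 pairs (11.6% of all genes) and 6 were higher (12.4%), with a median of -0.06. Between pH 7.4 at 4 h and the start, 1 of 87 had an unadjusted p under 0.05. Both lines were higher for 23 genes, against 27.5% of all genes, and lower for 17, against 26.7%. Cox4i2 (0.61), Cox7a1 (0.53), Ndufb6 (0.18) and Ndufab1 (-0.17) had the same sign in both lines, each with an adjusted p of 1.0.

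Further assembly factors of complex I without an Nduf symbol were read from a wider list of 17 tested genes, which includes the 8 above. At 12 h 10 of the 17 rose and 2 fell, against 17.0% and 17.7% of all genes, with a median of 0.50. Ecsit, a partner of Ndufaf1, rose by 1.26 (SE 0.12, adjusted p = 0.00121), from 72.4 and 70.1 at pH 7.4 to 168 and 169.1 at pH 6.4. Tmem70, which acts in complex V and complex I assembly, rose by 1.24 (SE 0.10, adjusted p = 0.00103), and had already risen at 4 h, by 0.74 (adjusted p = 0.00765). No gene of the mitochondrial lists passed at 4 h with either 4 h pair left out. Its intensities at pH 6.4 were 577.1 and 592.6 at 4 h and 673.4 and 848.7 at 12 h, against 311.2 to 378 on the other 6 arrays. Those that fell were Tmem126b (-0.69, adjusted p = 0.0275) and Nubpl (-0.64, adjusted p = 0.00471). Without the TDAG8 pair at 12 h 6 of the 17 rose and none fell, and the same counts held without the control pair.

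Of the assembly factors of complex IV, 2 of 22 rose and 6 fell at 12 h, against 17.0% and 17.7% of all genes, with 1 in each direction without either pair. Cox18, an insertase for a complex IV subunit, rose by 0.96 (SE 0.10, adjusted p = 0.00173). Cox19, a copper delivery factor, fell by 0.81 (SE 0.10, adjusted p = 0.00286) and Lrpprc, which stabilises mitochondrial mRNA, by 0.70 (SE 0.09, adjusted p = 0.0033). For complex II Sdhaf3 rose by 0.89 (adjusted p = 0.00218) and Sdhaf4 fell by 0.58 (adjusted p = 0.00455), 2 of 4 genes. For complex III 1 of 5 rose, Uqcc1 by 1.33 (SE 0.16, adjusted p = 0.00221). Without the TDAG8 pair none of these 9 passed, and without the control pair 2 of complex II and 1 of complex III rose and none fell. Of 5 assembly and inhibitor genes of complex V none passed at 12 h with limma (2 had an unadjusted p under 0.05). Between the lines, Bcs1l, which installs the Rieske protein in complex III, was lower in the TDAG8 line, with a difference of -0.54 (SE 0.06, adjusted p = 0.0263). It no longer passed when any pair was left out, with adjusted p between 0.0645 and 0.137.

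Of 17 regulators of mitochondrial biogenesis, 6 rose and 1 fell at 12 h, against 17.0% and 17.7% of all genes, with 3 rising and none falling without either pair. Gabpb1, a subunit of GABP, rose by 1.83 (SE 0.15, adjusted p = 0.00104), Pprc1, a coactivator of the PGC-1 family, by 1.07 (SE 0.11, adjusted p = 0.00157) and Polg2, a subunit of the mitochondrial DNA polymerase, by 1.05 (SE 0.08, adjusted p = 0.000948). Gabpb1 probe sets disagreed, with -0.14 at 12 h and -1.70 at 4 h from the second, against 1.83 and 1.09. At 4 h 2 of the 17 rose and 5 fell, against 6.27% and 11.6% of all genes, among the latter Polrmt, the mitochondrial RNA polymerase (-0.78, adjusted p = 0.0235). Ppargc1a and Ppargc1b, at or under 8.5, were below the filter. The single transcript encoded in mitochondrial DNA that was measured, ND5, read between 2740 and 4078 and had a 12 h difference of 0.01 (SE 0.14).

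**Figure D4:**
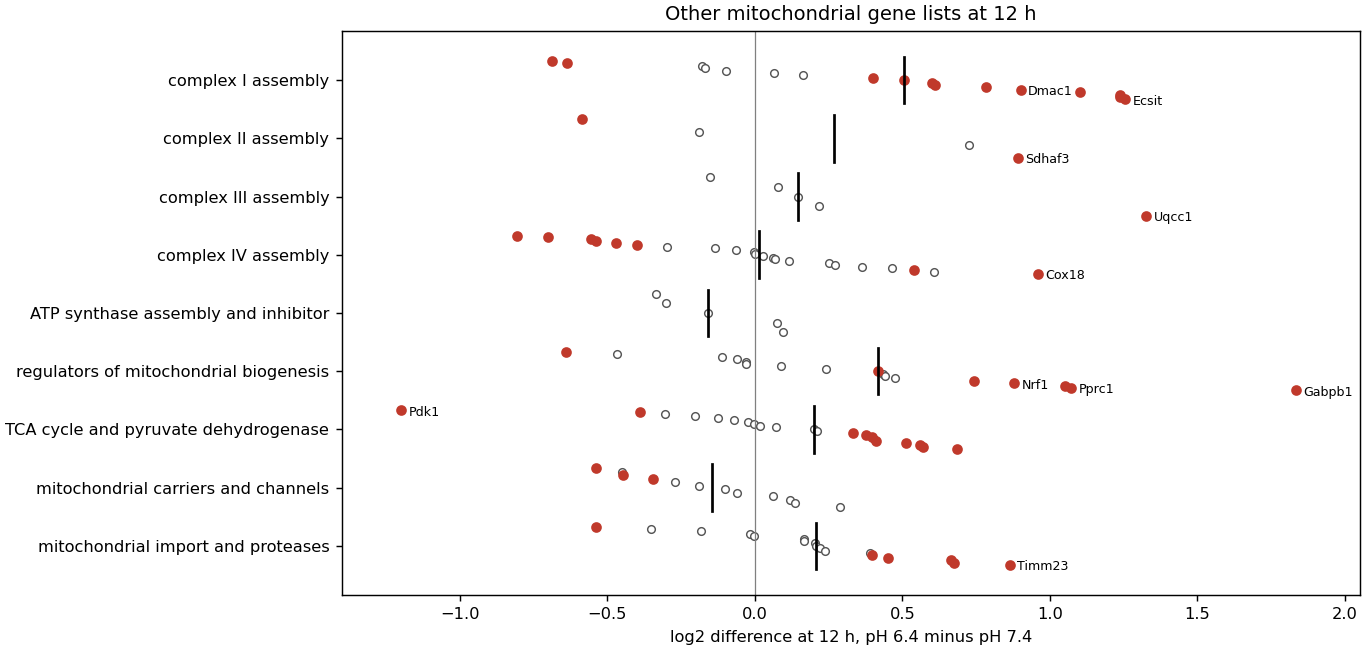
Log2 difference at 12 h, pH 6.4 against pH 7.4 over 2 pairs, of each tested gene in 9 other mitochondrial lists; filled points passed, open points did not, and bars are medians. The complex I assembly list, which shares 8 genes with the set described, has the highest median, 0.50.

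At 12 h, 4 of 6 tested mesenchymal markers fell at pH 6.4 (Pdgfra, Pdgfrb, Dcn and Lum), against 17.7% of all genes, while Vim did not pass. Col1a2 read 9.5 (TDAG8 line) and 13.7 (control line) at pH 6.4 against 11.1 and 15.3 at pH 7.4. The summed intensity of that list was 8988 and 10897 on the 12 h arrays at pH 6.4 against 10570 to 14439 on the other 8. The summed endothelial list stayed between 16.8 and 33.6 and the leukocyte list between 22.8 and 51.3. Of the other marker lists, the leukocyte gene Cd68 rose, from 10.6 (TDAG8 line) and 12.3 (control line) at pH 7.4 to 14.5 and 20.8 at pH 6.4. Lyz2, of the same list, read lower at pH 6.4 in both lines (8.4 and 11.8 against 11.2 and 13.5). The epithelial gene Ocln fell, from 28.4 and 15.6 to 8.5 and 7. Epcam, Krt8 and Krt18 read higher at pH 6.4 in the TDAG8 line and lower in the control line. Of 87 genes, 12 lay above all other arrays on both 12 h arrays at pH 6.4 (13.8%), against 15.5% of all genes, and 8 below (9.2%), against 13.8%. The part of these markers and of the B1 signal in the 12 h differences was not tested.

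Probe sets of a gene did not always move together. Of 49 genes with over 1 probe set above the filter level, 33 had the same sign at 12 h in all sets and 16 did not. Of the 19 genes that passed at 12 h, 13 rested on a single set above the filter level. Without the TDAG8 pair 3 rose (Ndufaf6, Ndufaf7 and Sdhd) and Ndufv3 fell. Without the control pair Ndufaf6 and Ndufaf7 rose and none fell, while 1591 and 1318 of all genes passed in these fits, against 4213 with both pairs.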

How the data were processed

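The 10 arrays gave 45101 probe sets. The authors deposited a linear intensity per probe set. Their software is not given in the sources used here, and a common 2% trimmed mean of 100 shows that arrays had been scaled to a target. Only the 34945 probe sets with 1 gene symbol were used (932 had several, 9160 none), so 10 sets naming a gene of interest among several were left out.

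Arrays were quantile normalised (medians spanned 0.2 on the log2 scale). The pseudocount, 2.4, was the 20th percentile, and the filter was a mean of at least 3.17, the 40th percentile of means. Fits used limma 3.58.1 (R 4.3.3; lmFit, eBayes, Benjamini-Hochberg over all 12160 genes) and had been checked on simulated data. Lines were compared over 5 pairs (condition as block, 4 residual degrees of freedom), pH over 4 pairs (block of line by time, 3), the response by line likewise (2), and pH at each time over all 10 arrays (4). The number of arrays limits precision.

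Alternatives were median centring, the values as deposited, other filters and pseudocounts, the mean of all probe sets, trend and robust, no block and each pair left out. For each comparison up to 8 rises and 8 falls that passed were to be named; at 12 h all 14 rises are given, so Cox8a, an isoform partner, Sdhc, of complex II, and Atp5g1, Ndufaf4, Ndufb3 and Uqcrc2 go beyond the 8. Where fewer than 4 passed, the 4 genes with one sign in every pair and the largest minimum were named. Isoform partners, complex II and up to 3 passing genes per list were added. The genes and lists were chosen with earlier results of these data known. Second probe sets, Atp5c1, Tmem126b, Nubpl and the marker genes were named after their values were seen.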

Additional observations from a re-analysis of the deposited data

Results flagged for a closer look

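The pH response of 3 genes differed between 12 h and 4 h by a test of the difference itself. For Ndufaf6 it was higher at 12 h by 0.969855, with 1.24 at 12 h and 0.27 at 4 h. For Ndufaf4 it was higher by 0.681858, with 0.40 at 12 h and -0.28 at 4 h, and by 0.49 (adjusted p = 0.112, not passing) over the mean of its probe sets. For Ndufv3 it was -0.595676, with -0.64 at 12 h and -0.04 at 4 h, and -0.45 (adjusted p = 0.134) with centred arrays. The difference had the same sign in both lines for each gene, and none passed with the treated arrays alone.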

How the results depend on the processing

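No pairing by replicate number was possible because each line and condition has a single replicate number, so these numbers pair no samples. Matched conditions were paired in the fits, and leaving that block out is given here as no block. Alternatives kept the side of the threshold and direction of named genes of the set in 478 cases, 78 lost the call, 24 gained it and 1 reversed, Ndufab1 between pH 7.4 at 4 h and the start (0.029 over the mean of all probe sets). For named list genes these were 435 kept, 245 lost and 2 reversed, both over the mean of all probe sets: Ogdh for pH (-0.10) and Gabpb1 at 4 h (-0.31). The causes were not tested.

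Counts of passing genes of the set moved as follows. Between the lines, 1 was lower with a filter at the 60th percentile and 7 with trend and robust. For pH, the 1 that rose became 0 with centred arrays, no filter or a pseudocount at the 5th percentile, 3 with the 60th percentile filter, the mean of all probe sets or no block, 2 with a pseudocount at the 40th percentile, and 6 with trend and robust or pH by time in the model. The 1 that fell became 0 with no filter, the mean of probe sets, the 5th percentile pseudocount or no block, and 2 with pH by time. Both were 0 to 0 with a pair left out. At 4 h the 1 that rose became 0 with centred arrays or no filter, 3 as deposited or with the mean of probe sets, 2 with the 60th percentile filter or the 40th percentile pseudocount, 7 with trend and robust, and 0 with a pair left out. At 12 h the 14 that rose became 5 with no filter, 22 with trend and robust and 8 with no block, and 2 to 3 with a pair left out. The 5 that fell became 3 with centred arrays, no filter or no block, and 0 to 1 with a pair left out. The 5 assembly factors became 3 with no filter and 2 to 2 with a pair left out. For pH by time, the 2 higher became 4 centred, 5 with the 60th percentile filter, 1 over the mean of probe sets, 6 with trend and robust, and 0 with no filter, no block, treated arrays alone or a pair left out. The 1 lower became 0 with centred arrays, no filter, no block, treated arrays alone or a pair left out, 2 over the mean of probe sets and 4 with trend and robust.

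Medians of the set moved, in the order centred, as deposited and mean of probe sets, to 0.19, 0.16 and 0.091 for pH (0.066 to 0.085 with a pair left out) and to 0.045, -0.018 and 0.041 for pH by line (0.029 for subunits only, 0.0029 to 0.053 with a pair left out). At 4 h they moved to 0.12, 0.17 and 0.105 (0.055 for subunits only, 0.058 with no filter or the 60th percentile filter, 0.060 to 0.061 with a pair left out). For pH by time they moved to 0.091, -0.088 and -0.036 (0.0095 to 0.063 with a pair left out). Centred and as deposited, it was -0.14 and -0.12 between the lines and -0.11 and -0.12 between the times, and centred it was 0.22 at 12 h. Centring moved the median of all genes for pH by time from 0.04 to 0.20. Intensities near the pseudocount, as of Ndufa4l2 and Cox6a2, limit those values.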

Other observations

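At 12 h in acid, 17.0% of all genes tested rose and 17.7% fell. Of 21 tested genes of the TCA cycle and pyruvate dehydrogenase, which feed the respiratory chain, 8 rose and 2 fell against these shares, and 11 did not pass. Dlst, a subunit of the 2-oxoglutarate dehydrogenase complex, rose by 0.69 (SE 0.10, adjusted p = 0.00366) and Suclg2, a subunit of succinyl-CoA ligase, by 0.57 (SE 0.09, adjusted p = 0.00471). Pdk1, the kinase that inhibits pyruvate dehydrogenase, fell by 1.20 (SE 0.12, adjusted p = 0.0015). At pH 6.4 for 12 h its intensity was 356.3 (TDAG8 line) and 246.1 (control line), below the 511.2 to 793.3 of the other 8 arrays. Without either 12 h pair none of the 21 rose and 1 fell.

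Of 12 mitochondrial carriers and channels none rose and 3 fell at 12 h, against 17.0% and 17.7% of all genes. Among those that fell were Slc25a11, the 2-oxoglutarate carrier (-0.54, adjusted p = 0.0115), and Slc25a4, an ADP/ATP carrier (-0.34, adjusted p = 0.0295). With centred arrays the median of the 12 turned from -0.15 to 0.01. Of 17 genes of protein import and mitochondrial proteases 5 rose and 1 fell, against the same shares. Timm23, a channel of the inner membrane, rose by 0.86 (SE 0.13, adjusted p = 0.00447) and the protease gene Yme1l1 by 0.68 (SE 0.11, adjusted p = 0.00675). Without either 12 h pair no carrier passed, and of the import genes none rose without the TDAG8 pair and 1 without the control pair.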
